A study of Mus musculus with 9 samples.

Results

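Cytochrome P450 enzymes were represented by 45 of the 12422 probe sets measured on mouse arrays. They were taken as every probe set whose only gene symbol is Cyp followed by a number, leaving out the retinoic acid hydroxylases of the Cyp26 family and the sterol demethylase Cyp51, which together account for 2 probe sets. The 45 probe sets stood for 38 genes, 7 of which had 2 probe sets each. A further 7 probe sets carried several symbols, at least 1 of them a Cyp, and were not counted as members. P450 enzymes with other symbols, such as Tbxas1 and Ptgis, were no members either, and these are counted below with the eicosanoid enzymes.

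F9 is an embryonal carcinoma line of the mouse, a model of early endoderm since retinoic acid drives its cells that way. There were 3 groups of 3 arrays, all after 24 h: retinoic acid (RA) at 0.5 µM, trichostatin A (TSA), an inhibitor of histone deacetylases, at 0.07 µM, and a vehicle group kept in DMEM with ethanol. The comparisons ask which P450 transcripts each compound changes and where the compounds differ. Whether the replicates came from separate cultures is not stated, and the p-values therefore reflect the spread of these samples alone, possibly a technical one. The samples used here hold 1 time point and 1 cell line, and none received both compounds.

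P450 enzymes hold a haem group with which they insert an oxygen atom into a substrate, using electrons from a reductase or, in mitochondria, from a ferredoxin. In mammals, families 1 to 4 act mainly on drugs, pollutants, fatty acids and eicosanoids, and are most abundant in liver, lung and skin. Other members build steroid hormones, bile acids and the active form of vitamin D.

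Each value was a linear ratio to the mean of the 3 vehicle arrays for the same probe set, so the vehicle mean is 1 by construction. Brightness cannot be recovered from such ratios, so a level cannot be compared between genes, and whether a transcript was present in vehicle cells cannot be read. Fold changes are differences of log2(ratio + 0.05). A probe set was called changed at a limma adjusted p under 0.05, with Benjamini-Hochberg adjustment over all 12422. In bulk RNA, fewer cells with a transcript and less of it per cell cannot be told apart.

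The arrays differed in ways that the groups do not account for. The median ratio of the 18S ribosomal RNA control probe sets was 2.40 on vehicle replicate 3 and 0.961 on RA replicate 3, against 0.538 on vehicle replicate 1 and at most 0.073 on the other 6 arrays. P450 probe sets had their highest value of the group on RA replicate 3 in 25 of 45 cases (55.6%, against 39.5% of all probe sets) and on vehicle replicate 3 in 30 of 45 (66.7%, against 39% of all). The median SD between replicates, on the log2 scale, was 0.489 in RA, 0.470 in TSA and 0.453 in vehicle for P450 probe sets, against 0.311, 0.260 and 0.413 for all probe sets. The part of these arrays in the results below was not tested. Results with and without them are given for Cyp2s1, Cyp2j6, Cyp4v3 and the P450 medians, and not for most other probe sets.

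**Figure D1:**
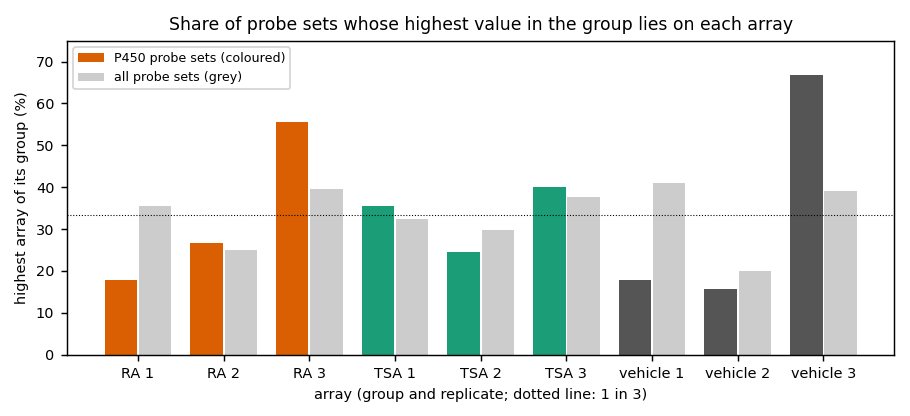
Share of probe sets (percent, vertical axis) whose highest value within the group lies on each of the 9 arrays; coloured bars are the 45 P450 probe sets, grey bars all 12422, and the dotted line is an even share between 3 arrays. The tallest coloured bars are vehicle replicate 3, at 66.7%, and RA replicate 3, at 55.6%.

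Of the 45 P450 probe sets, 3 were called changed in at least 1 comparison: Cyp2s1, Cyp2j6 and Cyp11a1. A probe set of several Cyp4a symbols, not counted as a member, was also called and is described at the end. With RA, 2 of the 45 probe sets passed the threshold (1.36% of all probe sets did), both lower than vehicle (0.427% of all were): Cyp2j6 and Cyp2s1. With TSA, 1 of 45 passed (3.48% of all did), and it was Cyp2s1, higher than vehicle (2.21% of all were). Between RA and TSA, 2 of 45 passed (3.91% of all did), Cyp11a1 higher in RA (1.7% of all were) and Cyp2s1 lower in RA (2.21% of all were). At an unadjusted p under 0.05 there were 4 of 45 in RA (12.7% of all), 9 of 45 in TSA (19.6% of all) and 8 of 45 between RA and TSA (17.1% of all). The other 42 probe sets passed in none of the comparisons. The RA and TSA comparisons share the vehicle arrays, so their values for a gene are not independent.

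Counts of probe sets whose arrays did not overlap between groups stood near or under those of the whole table. In RA against vehicle there were 4 of 45, 1 higher and 3 lower, where 17% of all probe sets did not overlap, 5.93% higher and 11% lower. In TSA against vehicle there were 10 of 45, 3 higher and 7 lower, where 26.3% of all did not overlap, 9.26% higher and 17.1% lower. In RA against TSA there were 9 of 45, 5 higher and 4 lower, where 27.3% of all did not overlap, 13.8% higher and 13.5% lower.

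Cyp2s1 went opposite ways in RA and TSA. It is an orphan enzyme of family 2 found in epithelia of lung, gut and skin, able to oxidise retinoic acid and eicosanoids, and its gene is a known target of the Ah receptor. Its probe set read 0.258, 0.156 and 0.354 in RA replicates 1, 2 and 3, and 2.71, 3.27 and 2.72 in TSA replicates 1, 2 and 3, against 1.04, 0.856 and 1.10 in vehicle replicates 1, 2 and 3. The 3 groups did not overlap: every RA array lay below every vehicle array, and every TSA array above them.

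The means were 0.256 ± 0.099 in RA and 2.90 ± 0.322 in TSA, against 1 ± 0.128 in vehicle (SD, n = 3 each). Relative to vehicle the log2 change was -1.82 (SE 0.264) in RA, with a limma adjusted p of 0.0159. It was 1.49 (SE 0.264) in TSA, with a limma adjusted p of 0.0224. RA against TSA differed by -3.32 (95% interval -3.92 to -2.71), with a limma adjusted p of 0.000625. With vehicle replicate 3 and RA replicate 3 left out it was -3.54, with a limma adjusted p of 0.00339. The difference passed in all 19 alternative analyses, with the adjusted p at most 0.00517. The fall in RA passed in 16 of 19, and leaving out RA replicate 1 took the limma adjusted p to 0.0654. The rise in TSA passed in 13 of 19; the limma adjusted p was 0.0539 without vehicle replicate 1, 0.0862 without vehicle replicate 2, and 0.0670, 0.109 and 0.0688 without TSA replicates 1, 2 and 3, while the change stayed between 1.39 and 1.56.

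The gene lies on mouse chromosome 7, on the minus strand, beside Axl and a row of Cyp2b genes. Its upstream window is shown because this gene was called in all 3 comparisons. The sequence is from RefSeq (GRCm38.p6), the 250 bases before the annotated start, 5′ to 3′ on the gene's strand; capitals mark the GC box GGGCGG, searched on both strands.

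Cyp2s1, chr7:25816526-25816775, minus strand: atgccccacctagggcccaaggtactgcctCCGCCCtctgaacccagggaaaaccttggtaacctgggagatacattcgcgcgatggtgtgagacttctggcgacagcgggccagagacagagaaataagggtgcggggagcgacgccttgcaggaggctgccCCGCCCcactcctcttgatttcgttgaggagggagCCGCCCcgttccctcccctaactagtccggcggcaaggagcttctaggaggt

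This window held 3 GC boxes and 15 CpG dinucleotides, and 72.7% of the 32851 mouse windows of the same length held fewer CpG. A GC box occurred in 32.7% of all windows. The letters TATAAA (in 12.4% of all windows), GCGTG (the core of Ah receptor sites, in 28.2%) and AGGTCA (a nuclear receptor half-site, in 14%), all searched on both strands, were not in this window.

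The neighbours on chromosome 7 were looked up after the values of Cyp2s1 were seen. Cyp2b10, Cyp2b13 and Cyp2b9, drug-metabolising enzymes, lie next in order on 1 side. Their log2 changes were -0.33, -0.001 and -0.43 in RA and -0.06, -0.48 and -0.46 in TSA relative to vehicle, and none passed. The 95% interval in TSA reached 1.00 for Cyp2b10, 0.96 for Cyp2b13 and 0.34 for Cyp2b9, against a lower bound of 0.89 for Cyp2s1.

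Cyp2j6 fell in RA. It belongs to a subfamily that turns arachidonic acid into epoxides in heart, gut and liver. Its probe set read 0.149, 0.0525 and 0.0882 in RA replicates 1, 2 and 3, and 0.589, 0.285 and 0.234 in TSA replicates 1, 2 and 3, against 1.202, 1.32 and 0.481 in vehicle replicates 1, 2 and 3. The RA arrays lay below all others, and TSA replicate 1 overlapped vehicle replicate 3, the array with the most 18S signal.

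The mean ratio of Cyp2j6 was 0.0964 ± 0.0485 in RA and 0.369 ± 0.192 in TSA, against 1 ± 0.453 in vehicle (SD, n = 3 each). The log2 change in RA was -2.78 (SE 0.455), with a limma adjusted p of 0.0254. In TSA it was -1.30 (95% interval -2.34 to -0.26), with a limma adjusted p of 0.166, so no change was called. RA against TSA differed by -1.48, with a limma adjusted p of 0.135, so the treatments were not shown to differ. The fall in RA passed in 8 of 18 alternatives. Its limma adjusted p was 0.0148 without vehicle replicate 3, and 0.0779 and 0.104 without vehicle replicates 1 and 2. Without RA replicates 1, 2 and 3 it was 0.0633, 0.119 and 0.0842, and without TSA replicate 2 it was 0.05004. The change itself stayed between -3.21 and -2.53 when any array was left out. With vehicle replicate 3 and RA replicate 3 both left out, it was -3.20, with a limma adjusted p of 0.0514.

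Of the other Cyp2j genes in the same stretch of chromosome 4, only Cyp2j5, an arachidonic acid epoxygenase of kidney and liver, was measured among the 6 nearest genes. It read 0.351, 0.579 and 0.695 in RA, and 0.590, 0.560 and 0.542 in TSA, against 0.617, 1.18 and 1.21 in vehicle, replicates 1 to 3. The TSA arrays lay below all vehicle arrays, and RA replicate 3 overlapped vehicle replicate 1. The log2 changes were -0.82 in RA and -0.72 in TSA, with limma adjusted p of 0.326 and 0.255. The upstream window of Cyp2j6 is printed for comparison with that of Cyp2s1, from the same source and with the same capitals.

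Cyp2j6, chr4:96553652-96553901, minus strand: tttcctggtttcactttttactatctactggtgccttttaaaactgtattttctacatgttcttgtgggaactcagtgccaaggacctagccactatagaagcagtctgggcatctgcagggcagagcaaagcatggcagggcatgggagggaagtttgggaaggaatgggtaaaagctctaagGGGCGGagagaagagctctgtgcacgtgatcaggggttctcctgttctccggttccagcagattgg

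It held 1 GC box and 3 CpG dinucleotides, and 29.0% of all windows held fewer CpG. None of the other 3 motifs was in it. Of the 38 genes, 30 had a window in the RefSeq table. Of their 33 windows, 7 held a GC box, and the median number of CpG was 2, against 6 over all windows.

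**Figure D2:**
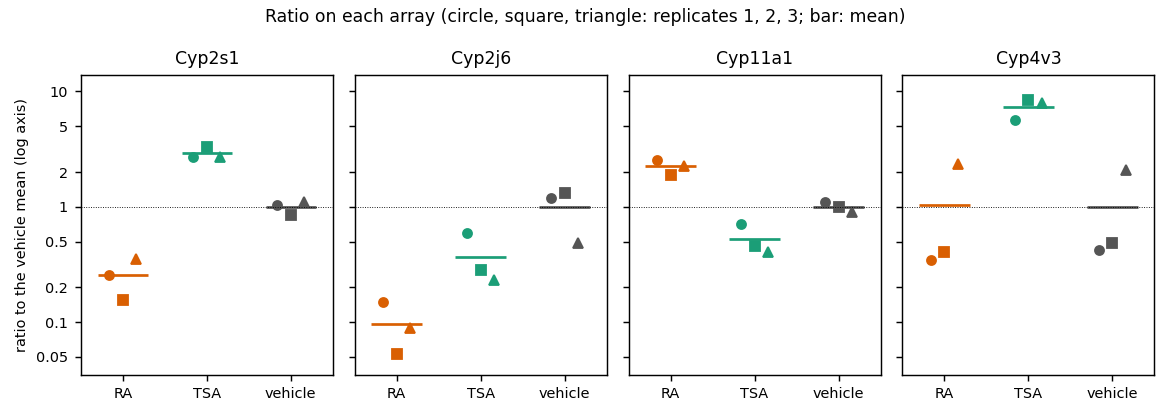
Ratio to the vehicle mean (log axis) on each array for 4 P450 probe sets, in RA, TSA and vehicle; circle, square and triangle are replicates 1, 2 and 3, and the bar is the arithmetic mean. Cyp2s1 is lowest in RA and highest in TSA, Cyp11a1 is highest in RA and lowest in TSA, and Cyp4v3 has 1 high array in RA and 1 in vehicle.

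Cyp11a1 ran the other way from Cyp2s1. It is the side-chain cleavage enzyme that makes pregnenolone from cholesterol, the first step of steroid hormone synthesis. Its probe set read 2.56, 1.90 and 2.26 in RA replicates 1, 2 and 3, and 0.712, 0.453 and 0.408 in TSA replicates 1, 2 and 3, against 1.11, 0.988 and 0.901 in vehicle replicates 1, 2 and 3. The 3 groups did not overlap, with RA highest and TSA lowest.

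The mean ratio was 2.24 ± 0.333 in RA and 0.524 ± 0.164 in TSA, against 1 ± 0.105 in vehicle (SD, n = 3 each). RA against TSA differed by 2.02 (SE 0.240), with a limma adjusted p of 0.00436, and this passed in all 19 alternatives, with the adjusted p at most 0.0250. Against vehicle neither treatment passed: the log2 change was 1.12 in RA, with a limma adjusted p of 0.0738, and -0.90 in TSA, with a limma adjusted p of 0.0841. RA against vehicle did pass in 2 of 19 alternatives, centring on array medians (1.27, limma adjusted p 0.0367) and array weights (1.09, limma adjusted p 0.0409), and TSA against vehicle in 1 of 19, array weights (-0.80, limma adjusted p 0.0437). Cyp2s1 and Cyp11a1 were the 2 P450 probe sets whose arrays lay on opposite sides of vehicle in RA and TSA without overlap. The share of all probe sets with this pattern was not counted, so it cannot be called particular to them.

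RefSeq gives 2 start windows for Cyp11a1 on the plus strand of chromosome 9, and both are shown, since the array does not tell which start was used.

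Cyp11a1 first start, chr9:57997774-57998023, plus strand: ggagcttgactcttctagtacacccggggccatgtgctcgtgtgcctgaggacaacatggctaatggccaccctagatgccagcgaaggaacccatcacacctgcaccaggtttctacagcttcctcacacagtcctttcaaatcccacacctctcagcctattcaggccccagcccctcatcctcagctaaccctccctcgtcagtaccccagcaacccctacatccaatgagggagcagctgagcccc

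Cyp11a1 second start, chr9:58014702-58014951, plus strand: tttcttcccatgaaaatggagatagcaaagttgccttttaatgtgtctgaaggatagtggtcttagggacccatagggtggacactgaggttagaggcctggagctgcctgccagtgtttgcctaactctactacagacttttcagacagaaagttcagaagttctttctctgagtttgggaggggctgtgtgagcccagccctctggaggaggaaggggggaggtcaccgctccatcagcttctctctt

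Neither held a GC box, so neither has capitals. They held 4 and 1 CpG dinucleotides, and 37.8% and 7.87% of all windows held fewer. The second held 1 AGGTCA, which 14% of all windows do. Stra6, a cell-surface receptor for the retinol carrier and known as a gene induced by RA, lies 2 genes from Cyp11a1; it changed by 3.94 on the log2 scale in RA (limma adjusted p 0.000367) and by -0.47 in TSA (limma adjusted p 0.350). Of the 6 nearest genes, 3 others were measured, and none passed: in RA, Sema7a changed by 0.05, Arid3b by 0.49 and Islr by 0.57.

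The other steroid hormone enzymes did not pass. Cyp17a1, which hydroxylates and cleaves the steroid at carbon 17 in gonad and adrenal, had log2 changes of -0.70 and -0.42 in RA and of -0.67 and -0.47 in TSA for its 2 probe sets. Cyp21a1, which makes the precursors of corticosteroids, changed by -0.19 in RA (95% interval -0.67 to 0.30) and by -0.20 in TSA (95% interval -0.69 to 0.28). The 8 measured markers of steroidogenic cells held no called gene in RA, and in TSA 1 of 8 was lower (1.78% of all genes were), Nr5a1, by -1.06 (limma adjusted p 0.0338). That call held in 7 of 18 alternatives and in 2 of the 9 fits that left out 1 array, with the adjusted p up to 0.140. That list's mean log2 value ran from -0.296 to -0.197 in RA, from -0.701 to -0.0483 in TSA and from -0.261 to 0.387 in vehicle.

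Beyond its 2 called genes, family 2 held drug, odorant and fatty acid oxidases, with 18 probe sets of 17 genes in all. Its median log2 change was -0.32 in RA, with 16 of 18 below 0, and -0.49 in TSA, with 16 of 18 below 0. Cyp2c38, a fatty acid epoxygenase, was the only P450 probe set whose arrays lay below vehicle without overlap in both treatments. How large a share of all probe sets did so was not counted. The values of Cyp2c38 follow. It read 0.583, 0.768 and 0.207 in RA and 0.459, 0.180 and 0.295 in TSA, against 0.807, 0.980 and 1.21 in vehicle, replicates 1 to 3. The changes of -1.02 in RA and -1.595 in TSA had limma adjusted p of 0.402 and 0.101. Its probe set is of a kind (suffix _f_at) whose probes can match other members of a gene family, so it may not report Cyp2c38 alone. The other Cyp2c probe sets changed by -0.42 (Cyp2c29), -0.47 (Cyp2c39) and -0.49 (Cyp2c70) in RA and by -0.84, -0.64 and -0.49 in TSA, and none passed. Cyp2e1, which oxidises ethanol, changed by -0.22 in RA and -0.31 in TSA, Cyp2a12, a steroid hydroxylase, by -0.03 and -0.32, and Cyp2b19, an enzyme of skin, by -0.03 and -0.17.

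The Cyp2d genes, liver enzymes of drug and steroid metabolism, had higher mean values in RA than in TSA, but none of these differences passed. Cyp2d9 read 1.03, 0.859 and 0.968 in RA and 0.412, 0.685 and 0.332 in TSA, against 0.700, 0.696 and 1.604 in vehicle, replicates 1 to 3. RA and TSA did not overlap, and the difference of 0.98 had a limma adjusted p of 0.212. For Cyp2d10 the probe set with suffix _s_at differed by 0.45 between RA and TSA (limma adjusted p 0.302). The other differed by 0.21, with overlapping arrays, and Cyp2d26 differed by 0.42 (limma adjusted p 0.610). Against vehicle in TSA, Cyp2d9 changed by -0.95 and Cyp2d10 by -0.61 and -0.52, none of which passed.

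Cyp2f2, a lung enzyme that activates naphthalene, was 1 of the few with higher values. It read 1.01, 1.53 and 1.37 in RA and 1.82, 1.502 and 1.65 in TSA, against 0.742, 1.15 and 1.11 in vehicle, replicates 1 to 3. All TSA arrays lay above all vehicle arrays, and the change of 0.72 had a limma adjusted p of 0.149.

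Family 1, the enzymes of polycyclic aromatic hydrocarbons that the Ah receptor induces, had no called probe set among 5. Cyp1a1 had log2 changes of 0.14 and -1.31 in RA and of 0.39 and 0.37 in TSA. Cyp1b1 had changes of -1.67 and 0.38 in RA and of -0.57 and -0.67 in TSA. The 2 probe sets of each gene thus went opposite ways in RA, and for 4 of the 7 genes with 2 probe sets the signs matched in RA and for 6 of 7 in TSA. Cyp1a2, an oxidase of caffeine and aromatic amines, changed by -0.55 in RA and 0.31 in TSA. The intervals were wide: that of the first Cyp1b1 probe set in RA ran from -3.82 to 0.49.

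Family 3 holds the main liver drug oxidases, and none of its 4 probe sets passed. The median log2 change was -0.83 in RA and -0.65 in TSA. Cyp3a25 read 0.128, 0.894 and 0.190 in RA and 0.184, 0.288 and 0.107 in TSA, against 0.742, 0.283 and 1.98 in vehicle, replicates 1 to 3. The vehicle arrays spanned the widest range, and the change of -1.81 in TSA had a limma adjusted p of 0.244. Cyp3a13 had the smallest unadjusted p of the family in RA, with a change of -0.44 (limma adjusted p 0.515). Cyp3a11, the main form of adult mouse liver, changed by 0.03 in RA and -0.39 in TSA, and Cyp3a16, a form of fetal liver, by -1.23 and -0.87.

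Family 4, hydroxylases of fatty acids and leukotrienes, held the largest positive log2 change of the 45 probe sets, which did not pass the threshold. Cyp4v3, the counterpart of a human fatty acid hydroxylase that is mutated in a retinal dystrophy, read 0.343, 0.408 and 2.34 in RA and 5.69, 8.46 and 7.93 in TSA, against 0.425, 0.486 and 2.09 in vehicle, replicates 1 to 3. Every TSA array lay above all others, and the high arrays of RA and vehicle were the 2 with the most 18S signal.

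The log2 change of Cyp4v3 was 3.16 in TSA (SE 0.769; limma adjusted p 0.0661) and -0.11 in RA. RA against TSA differed by -3.28 (limma adjusted p 0.0565). With RA replicate 3 and vehicle replicate 3 both left out, the rise in TSA was 3.85 (limma adjusted p 0.00497) and the difference -4.11 (limma adjusted p 0.00293). The call for TSA was gained without vehicle replicate 3 alone (3.85, limma adjusted p 0.0365) and without RA replicate 3 alone (limma adjusted p 0.0305). The rise in TSA passed in 5 of 19 alternatives, array weights among them. The difference between RA and TSA passed in 7 of 19, among them without each of the same arrays (limma adjusted p 0.0337 and 0.0222), without both, with the filter on the lowest 30% (0.0454), with the variance trend (0.0480) and with array weights (0.0104). It also passed with 1 value a gene.

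Cyp4f13, of a subfamily that inactivates leukotrienes, differed between its 2 probe sets. One read 0.481, 0.574 and 0.629 in RA and 1.25, 2.07 and 1.46 in TSA, against 1.37, 1.12 and 0.512 in vehicle, replicates 1 to 3. RA lay below TSA on every array, by -1.40 (limma adjusted p 0.0732). The other probe set, with suffix _f_at, differed by 0.09. The Cyp4a genes are targets of the fatty acid receptor Ppara. Their probe sets with 1 symbol had changes from -0.84 to -0.20 in RA and from -1.37 to 0.12 in TSA, none of which passed. A probe set of several Cyp4a symbols, described at the end, was lower in TSA by -1.98 (limma adjusted p 0.0119). Cyp4b1, a lung enzyme, changed by -0.02 in RA and -0.12 in TSA.

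The bile acid and vitamin D enzymes did not pass in any comparison. Cyp7a1, the rate-limiting enzyme of bile acid synthesis, changed by -0.64 in RA and -0.95 in TSA, and Cyp8b1, which sets the share of cholic acid, by 0.04 and -0.41. Cyp7b1, an oxysterol hydroxylase, had changes of -0.001 and -0.02 in RA and of -0.18 and 0.62 in TSA for its 2 probe sets. Cyp24a1, which breaks down active vitamin D, changed by -0.55 and -0.46 in RA and by -0.13 and -0.25 in TSA. Cyp27b1, which makes active vitamin D, changed by -0.31 in RA and -0.53 in TSA. The 13 measured markers of hepatocytes and visceral endoderm held no called gene in RA or TSA by limma, with 2 at an unadjusted p under 0.05 in each.

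**Figure D3:**
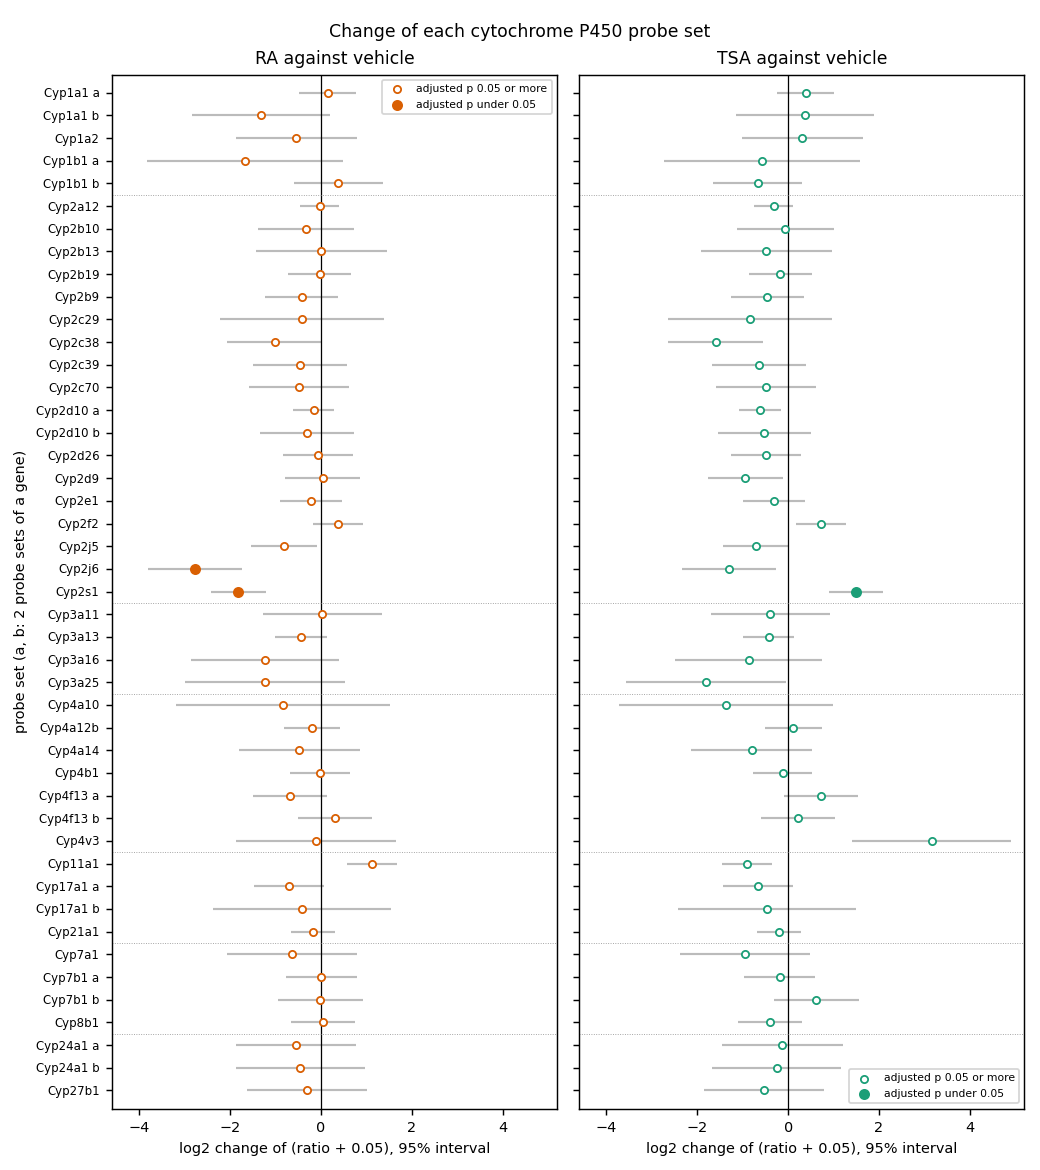
Log2 change of (ratio + 0.05) for each of the 45 P450 probe sets against vehicle, in RA (left) and TSA (right), with 95% intervals as bars; filled points have a limma adjusted p under 0.05, and dotted lines part the role groups. Cyp2j6 and Cyp2s1 are filled in RA, both below 0, and Cyp2s1 alone in TSA, above 0.

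Most P450 probe sets had a log2 change below 0 in each treatment taken alone, as did most of all probe sets. In RA, 37 of 45 probe sets had a log2 change below 0 (82.2%, against 62.3% of all probe sets), and the median was -0.33, against -0.12 for all. In TSA, 35 of 45 were below 0 (77.8%, against 63.9% of all), and the median was -0.46, against -0.17. With each array centred on its own median, the P450 medians were -0.17 in RA and -0.26 in TSA, and those of all probe sets 0.035 and 0.029. Between RA and TSA, 19 of 45 were below 0 (42.2%, against 45.8% of all), with a median of 0.085, against 0.046.

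The size of these medians changed with the arrays used. Without vehicle replicate 3 the P450 median was -0.085 in RA, against -0.11 for all probe sets, and -0.28 in TSA, against -0.15. With RA replicate 3 left out as well, it was -0.22 in RA, against -0.14 for all. Without RA replicate 1 it was -0.15 in RA, against -0.11 for all. The median between RA and TSA was -0.093 without RA replicate 3 and -0.056 without TSA replicate 2, so its sign changed, and it was 0.157, 0.00050 and 0.160 without RA replicate 1, RA replicate 2 and TSA replicate 3. Cyp2s1 in RA and TSA and Cyp2j6 in RA lay far from these medians, but both genes were picked with earlier results known. Uncalled changes lay far out too: Cyp4v3 (3.16) and Cyp3a25 (-1.81) in TSA, and Cyp11a1 (1.12) and 1 Cyp1b1 probe set (-1.67) in RA. On the log2 scale 37 of 45 probe sets in RA and 39 of 45 in TSA lay within 1 of 0, against 91.8% and 88.7% of all.

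**Figure D4:**
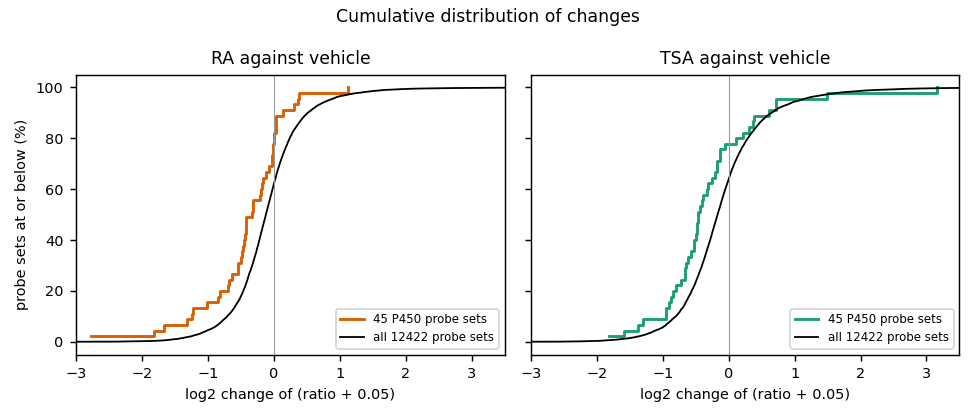
Cumulative share of probe sets (percent, vertical axis) at or below each log2 change of (ratio + 0.05) against vehicle (horizontal axis), in RA (left) and TSA (right); the coloured steps are the 45 P450 probe sets and the black line all 12422. The coloured steps lie left of the black line over most of the range, with medians of -0.33 against -0.12 in RA and -0.46 against -0.17 in TSA.

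The genes that work with P450s were read with 1 value a gene, over 8251 genes, of which limma called 1.82% in RA (1.19% higher, 0.63% lower), 4.5% in TSA (2.71% higher, 1.78% lower) and 4.99% between RA and TSA (2.21% higher, 2.79% lower in RA). At that level 2 of the 38 P450 genes were lower in RA, 1 was higher in TSA, and between RA and TSA 1 was higher and 2 were lower in RA, Cyp4v3 being added. A list of 17 genes of electron and haem supply also held the haem oxygenases Hmox1 and Hmox2, which break haem down. The reductases Por and Fdxr were not among the genes measured with 1 symbol, so their levels are not known here. Of the 17, none passed in RA by limma, with 1 at an unadjusted p under 0.05. In TSA 1 was higher, the haem synthesis enzyme Uros, by 1.07 (limma adjusted p 0.0154). Uros was also lower in RA than in TSA, by -0.96 (limma adjusted p 0.0202). Its call in TSA held in 15 of 18 alternatives and in 6 of the 9 fits that left out 1 array. The call between RA and TSA held in 12 of 18 and 4 of 9. Of 24 receptors and factors that control P450 genes, 1 was higher in RA, Foxa1, by 4.70 (limma adjusted p 0.00496), and 1 was lower, Nr5a2, by -1.03 (limma adjusted p 0.0335). The Foxa1 call held in 17 of 18 alternatives and that of Nr5a2 in 6 of 18, with 1 of the 9 fits that left out 1 array and the adjusted p up to 0.146. In TSA 1 was higher, Ahr, the Ah receptor, and 1 was lower, Nr5a1, which drives steroidogenic genes. Between RA and TSA 1 was higher in RA, Foxa1, by 5.42, and 2 were lower, Ahr, by -1.599, and Nr5a2, by -1.37, all called in 18 of 18 alternatives.

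Ahr ran the same way as Cyp2s1 in TSA. It read 0.691, 0.795 and 0.697 in RA and 2.24, 2.61 and 2.09 in TSA, against 1.27, 0.738 and 0.996 in vehicle, replicates 1 to 3. All TSA arrays lay above vehicle, and RA overlapped vehicle. The log2 change was 1.195 in TSA (limma adjusted p 0.0209, called in 12 of 18 alternatives) and -0.40 in RA (limma adjusted p 0.464). No relation between it and Cyp2s1 was tested.

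Of 12 enzymes of epoxides and eicosanoids, 1 was higher in RA, the prostaglandin E synthase Ptges, by 1.30 (limma adjusted p 0.0122), and 3 were higher in TSA. These were Alox15, a lipoxygenase, by 2.52 (limma adjusted p 0.00415), the soluble epoxide hydrolase Ephx2 by 1.58 (limma adjusted p 0.0229) and Ptges by 0.93 (limma adjusted p 0.0293). Between RA and TSA 3 were lower in RA, with Alox15 at -3.94 (limma adjusted p 0.00036), Ephx2 at -1.53 and Hpgd, which inactivates prostaglandins, at -2.25. Alox15 held in 18 of 18 alternatives in both comparisons. Ephx2 held in 14 of 18 in TSA and 13 of 18 between RA and TSA, Hpgd in 11 of 18, and Ptges in 14 of 18 in RA and 9 of 18 in TSA. The list's median was 0.08 in RA and 0.79 in TSA, against -0.12 and -0.15 for all genes.

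A list of 30 genes held conjugating enzymes, which take up the products of P450s, and also the quinone reductase Nqo1. None of the 30 passed in RA by limma, with 3 at an unadjusted p under 0.05. In TSA 4 were higher: the glutathione transferases Gstk1, by 3.48, and Gstp1, by 1.05, the quinone reductase Nqo1, by 1.33, and the methyltransferase Tpmt, by 0.82. Their limma adjusted p ran from 0.00574 for Nqo1 to 0.0344 for Gstk1. The Nqo1 call held in 18 of 18 alternatives, Gstp1 in 13 of 18, and Gstk1 and Tpmt in 9 of 18 each, with 2 and 3 of the 9 fits that left out 1 array. Between RA and TSA 4 were lower in RA: Gstk1 by -3.68 (called in 10 of 18), the transferase Gsto1 by -1.89 (16 of 18), Nqo1 by -1.63 (18 of 18) and Tpmt by -0.82 (10 of 18), with limma adjusted p from 0.00165 to 0.0251. The list's median was -0.27 in RA and 0.24 in TSA, against -0.12 and -0.15 for all genes.

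Markers of the cells moved as well. Of 10 embryonal carcinoma markers, 3 were lower in RA, Tdgf1 by -2.37, Utf1 by -1.74 and Zfp42 by -1.69, and 2 in TSA, Tdgf1 and Utf1, with limma adjusted p of at most 0.0358. In TSA the Utf1 call held in 6 of 18 alternatives and in 2 of the 9 fits that left out 1 array, and that of Tdgf1 in 9 of 18 and 3 of 9, with the adjusted p up to 0.263. In RA, Zfp42 held in 18 of 18, Tdgf1 in 17 of 18 and Utf1 in 13 of 18. Zfp42 alone passed between RA and TSA, lower in RA by -1.55 (18 of 18). Of 9 fibroblast and feeder markers, none passed in RA by limma, with 2 at an unadjusted p under 0.05, and 2 were higher in TSA, Thy1 by 3.00 (called in 12 of 18 alternatives) and Col1a1 by 2.45 (14 of 18). Both were lower in RA than in TSA, by -4.35 (17 of 18) and -2.88 (18 of 18). That list's mean log2 value ran from -0.375 to 0.122 in RA, from 0.404 to 0.708 in TSA and from -0.784 to 0.584 in vehicle, where replicate 3 was again the highest. Its median change was -0.13 in RA and 0.09 in TSA, against -0.12 and -0.15 for all genes. In TSA 3 of the 9 genes were below 0, so the rise was not shared by every gene, and 4 had an unadjusted limma p under 0.05. The part of these markers in the P450 results was not tested.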

How the data were processed

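RNA of 9 arrays was compared in 3 groups named by the sample titles. Per the labels, total RNA was DNase-treated, cleaned on columns and hybridised at a core facility, and the vehicle labels name GeneSpring. The deposited values are ratios on a linear scale, and in each probe set they average 1 over the vehicle arrays; no source used here gives the authors' other steps. The 66 control probe sets were left out, and 12422 remained, 10833 of them with 1 symbol in the platform annotation, 396 with several and 1193 with none. Symbols were updated through Entrez IDs with RefSeq (GRCm38.p6).

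Values were analysed as log2(ratio + 0.05), which understates changes of low values, in 1 limma fit (limma 3.58.1, R 4.3.3) over all 9 arrays with 6 residual degrees of freedom and Benjamini-Hochberg adjustment over all probe sets. Gene values are means over probe sets. The steps were tested on simulated data. Members and lists were chosen with earlier results of these data known. Named by rule were called members, the 5 largest rises and falls per comparison without overlap, the smallest p per role in each treatment, and genes with several probe sets. Further members of the role groups were named outside these rules. Genes of the lists were named where they passed, and the chromosomal neighbours after their values were seen. Alternatives were pseudocounts of 0.01 and 0.1, quantile normalisation, centring, a filter on the lowest 30%, a variance trend, array weights, the 6 arrays compared, a replicate block, gene means, and arrays left out. The number of arrays limits the precision.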

Additional observations from a re-analysis of the deposited data

How the results depend on the processing

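All values are limma results with Benjamini-Hochberg adjustment. Cyp2s1 between RA and TSA passed under every alternative run, and no called P450 changed sign. Called P450 probe sets in RA (2 as reported) numbered 0 with quantile normalisation and 0 with the 6 arrays compared. They numbered 1 with the 30% filter, which left Cyp2j6 out, and 1 with the variance trend. With centring and with array weights they numbered 3 each (Cyp11a1 added in both). They numbered 1 without vehicle replicate 3 and RA replicate 3, and 0 to 2 with any array left out. In TSA (1 as reported) they numbered 0 with quantile normalisation, 7 with array weights, 2 with the replicate block (Cyp4v3 added), 2 without vehicle replicate 3 and RA replicate 3, and 0 to 3 with any array left out. Between RA and TSA (2 as reported) they numbered 5 with array weights, 4 without those 2 arrays, 3 with the filter, the trend, gene means and the replicate block (Cyp4v3 added, adjusted p 0.0252 with the block), 3 with the 6 arrays (Cyp4f13 added), and 2 to 4 with any array left out. Whether the replicate numbers pair the samples was not settled. Same-numbered arrays correlated from -0.0317 to 0.289 in their deviations, and arrays of different number from -0.300 to 0.171. Arrays of replicate 3 correlated by 0.289 (RA and vehicle), 0.237 (TSA and vehicle) and 0.190 (RA and TSA). Cyp2s1 in RA was -1.53 (adjusted p 0.0546) with quantile normalisation and -1.82 (0.0792) with the 6 arrays, and -2.05 to -1.57 with any array left out. Cyp2s1 in TSA was 1.33 (0.0710) with quantile normalisation, and 1.39 to 1.56 with any array left out. Cyp2j6 in RA was -2.61 (0.133) with quantile normalisation, -2.78 with the variance trend (0.203) and with the 6 arrays (0.0698), -3.20 (0.0514) without both arrays, and -3.21 to -2.53 with any array left out. The P450 median was -0.026 in RA and -0.094 in TSA with the filter, which removes probe sets that fell, and -0.24 in TSA with quantile normalisation. It was -0.093 between RA and TSA without both arrays. With any array left out it was -0.43 to -0.085 in RA, -0.56 to -0.28 in TSA and -0.093 to 0.16 between RA and TSA. Called among all probe sets in RA, TSA and RA against TSA (169, 432 and 486 as reported) were 87, 108 and 152 with quantile normalisation, 549, 1771 and 890 with array weights, 61 in RA and 168 in TSA with the 6 arrays, 111 in RA with the variance trend, 98 in RA without both arrays, and 54 to 209, 107 to 494 and 167 to 624 with any array left out. The cause was not tested.

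Signs turned for 15 uncalled results. In RA, Cyp7b1 was 0.13 and 0.12 with quantile normalisation, 0.16 and 0.14 with centring, 0.035 and 0.10 with array weights, 0.32 and 0.44 without both arrays, and -0.17 to 0.18 and -0.27 to 0.39 with any array left out. The second Cyp17a1 probe set was 0.30 with array weights, 0.31 without both arrays and -0.99 to 0.63 with any left out. With any array left out, Cyp1a1 was -0.020 to 0.36, Cyp24a1 -0.99 to 0.030 and -0.94 to 0.21, and Cyp2d10 -0.66 to 0.12. The probe set of several Cyp4a symbols was 0.034 without both arrays. In TSA, the first Cyp7b1 probe set was 0.015 with centring and -0.48 to 0.15 with any array left out. Cyp1b1 was 1.05 with array weights and -1.81 to 0.16, Cyp17a1 0.21 with array weights, 0.59 without both arrays and -1.03 to 0.59, and the second Cyp1a1 probe set -0.072 with array weights and -0.045 to 0.84. Cyp24a1 was 0.013 with quantile normalisation, 0.070 with centring and -0.56 to 0.34, its other probe set -0.73 to 0.047, and Cyp4f13 -0.13 to 0.51.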

Other observations

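A probe set that the platform annotation gives to several Cyp4a symbols at once was lower in TSA. It read 0.265, 0.145 and 0.248 in TSA replicates 1, 2 and 3, against 0.888, 0.879 and 1.23 in vehicle replicates 1, 2 and 3, and the arrays did not overlap. The log2 change was -1.98 (SE 0.294), with a limma adjusted p of 0.0119, and it was called in 17 of 18 alternatives. In RA it read 1.04, 0.788 and 0.547, overlapping vehicle, and RA against TSA differed by 1.63 (limma adjusted p 0.0210), a call that held in 13 of 18 alternatives and in 4 of the 9 fits that left out 1 array, with the adjusted p up to 0.0825. Which Cyp4a gene it reports cannot be told apart. The other 6 probe sets with several symbols that include a Cyp were called in no comparison.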
